A study of Mus musculus with 2 samples.

Results

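Head-to-head gene pairs are genes on opposite strands whose 5′ ends lie side by side and point away from each other, so that 1 stretch of DNA serves as the promoter region of both. Here 735 such pairs of protein-coding genes were examined for trimethylation of lysine 27 of histone H3 (H3K27me3). They were found in the GENCODE annotation (release 21, mouse build mm10, also called GRCm38) as a minus-strand gene whose 5′ end lay 0 to 1000 bp to the left of that of a plus-strand gene. The pairs hold 1450 of the 20807 coding genes of the 19 autosomes, and the 19357 other genes are called unpaired. Because 20 genes stand in 2 pairs, 40 pairs share a gene with another pair. A further 445 pairs whose 5′ ends reach past each other were not counted among the 735.

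The mark was mapped in E14TG2a.4 cells by chromatin immunoprecipitation followed by sequencing. E14TG2a.4 is an embryonic stem cell line of 129/Ola mice, given as embryonic day 3.5 in the labels. The 2 samples are labelled biological replicates 1 and 2 and form 1 group with no treatment, mutant or other cell type, so no comparison between conditions can be made and all values are those of 1 cell line. The list called on replicate 1 alone had 63651 peaks over 53.6 Mb, and that of replicate 2 had 98582 peaks over 58.4 Mb. Read depth is unknown, so where no peak was called the reads may have been too few. Peaks were absent from the starts of the pluripotency genes Pou5f1, Nanog and Sox2 in both replicates, and of 6 genes typical of feeder fibroblasts Col1a1, Col1a2, Thy1 and Pdgfra were marked while Col3a1 and Acta2 were not. The lists hold no expression values, so transcription of these genes was not measured.

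H3K27me3 is written by Polycomb repressive complex 2 and in embryonic stem cells lies mainly over CpG-rich promoters of genes that are silent or held at low activity, many of them developmental regulators. Head-to-head pairs are common in mammalian genomes. Their shared promoters are often CpG islands, and many of the genes have housekeeping roles in DNA repair, mitochondria, chromatin and RNA processing, although pairs of tissue-restricted genes such as collagen IV chains exist as well.

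The bases between the starts of 7 pairs are shown because they represent the arrangements described below. Each is the whole stretch between the 5′ ends, read on the plus strand of GRCm38 from the RefSeq assembly, and capitals mark every CpG dinucleotide. In the first 3 pairs peaks of both replicates covered the whole stretch. Nr2e1 encodes an orphan nuclear receptor of neural stem cells and Ostm1 a lysosomal membrane protein of bone-resorbing cells, and the stretch is chr10:42583633-42583821. Il17rb encodes an interleukin receptor chain and Chdh choline dehydrogenase (chr14:30008897-30009022). Col4a4 and Col4a3 encode chains of basement-membrane collagen (chr1:82586850-82586920).
Nr2e1-Ostm1: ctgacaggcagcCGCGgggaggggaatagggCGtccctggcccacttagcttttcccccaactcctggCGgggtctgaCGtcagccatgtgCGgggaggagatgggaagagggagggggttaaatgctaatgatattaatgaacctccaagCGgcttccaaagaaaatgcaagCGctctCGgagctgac
Il17rb-Chdh: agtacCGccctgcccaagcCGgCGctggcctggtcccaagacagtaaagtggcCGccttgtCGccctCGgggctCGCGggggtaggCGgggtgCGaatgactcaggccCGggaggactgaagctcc
Col4a4-Col4a3: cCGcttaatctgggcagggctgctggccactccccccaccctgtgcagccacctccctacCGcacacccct

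The stretch of Tmem135, a transmembrane protein gene, and Fzd4, a receptor for Wnt proteins and norrin, carried no peak common to the replicates although both genes' sides did (chr7:89404223-89404354). For Sgce and Peg10, a pair of imprinted genes, the mark common to the replicates lay on the Peg10 side (chr6:4747208-4747305). For Grik5, a kainate-type glutamate receptor subunit, and Zfp574, a zinc finger gene, it lay on the Grik5 side (chr7:25072347-25072566). Mrps12 and Sars2, which encode a protein of the mitochondrial ribosome and the mitochondrial seryl-tRNA synthetase, had no peak (chr7:28741821-28741991). Sgce-Peg10 was chosen after its values were seen.
Tmem135-Fzd4: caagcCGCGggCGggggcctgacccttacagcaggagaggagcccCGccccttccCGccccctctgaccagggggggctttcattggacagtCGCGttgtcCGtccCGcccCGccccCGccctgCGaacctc
Sgce-Peg10: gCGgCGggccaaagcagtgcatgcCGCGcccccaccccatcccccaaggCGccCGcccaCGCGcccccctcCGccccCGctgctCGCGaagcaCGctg
Grik5-Zfp574: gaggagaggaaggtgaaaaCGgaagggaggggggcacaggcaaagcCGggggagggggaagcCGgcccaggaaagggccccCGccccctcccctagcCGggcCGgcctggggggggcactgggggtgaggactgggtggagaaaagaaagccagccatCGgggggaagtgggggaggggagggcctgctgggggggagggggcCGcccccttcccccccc
Mrps12-Sars2: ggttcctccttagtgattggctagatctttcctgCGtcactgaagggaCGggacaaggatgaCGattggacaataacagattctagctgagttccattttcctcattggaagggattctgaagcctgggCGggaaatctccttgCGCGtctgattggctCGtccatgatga

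These stretches held 9 CpGs in 189 bp for Nr2e1-Ostm1, 11 in 126 bp for Il17rb-Chdh and 2 in 71 bp for Col4a4-Col4a3. Those without common coverage held 12 CpGs in 132 bp for Tmem135-Fzd4, 13 in 98 bp for Sgce-Peg10, 8 in 220 bp for Grik5-Zfp574 and 7 in 171 bp for Mrps12-Sars2. Across the 711 pairs with at least 20 bp between the starts the median was 8.08 CpGs per 100 bp and the median GC content 63.3%. For the 97 of them marked at both starts the medians were 8.45 CpGs per 100 bp and 68.3% GC, against 8.11 and 62.9% for the 605 marked at neither.

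Most pairs were free of the mark. A start counts as marked where peaks of both replicates reach within 1 kb of it on either side by at least 1 bp. By this measure 625 pairs had no marked start (85.0%, exact 95% interval 82.3 to 87.5%) and 110 had at least 1. Among these 110, only 9 had a single marked start (1.22% of the 735, 0.561 to 2.31%) and all others were marked at both (13.7%, 11.3 to 16.4%). Intervals are Clopper-Pearson and cover counting error only. In replicate 1 alone the counts were 617, 110 and 8 pairs, and in replicate 2 alone 606, 114 and 15, so that 703 pairs had the same state in both. No peak of either replicate touched 598 pairs, and 27 of the pairs counted as free had a peak in a single replicate, 8 of them in replicate 1 and 19 in replicate 2.

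Paired genes were marked less often than unpaired genes. Of all autosomal coding genes 26.8% were marked, whereas 209 of 1450 paired genes were (14.4%, 12.6 to 16.3%), against 5370 of 19357 unpaired genes (27.7%, 27.1 to 28.4%). In replicate 1, where 28.6% of all genes had a peak, the shares were 15.5% of paired and 29.6% of unpaired genes. In replicate 2, with 31.0% of all genes, they were 16.6% of paired and 32.1% of unpaired genes. The intervals treat genes as independent, although partners share most of their window, so those of paired genes are likely too narrow. Genes are not replicates, and no test of this difference was made.

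The unpaired genes were split by what starts near them. Unpaired genes with another coding start within 1 kb in a different arrangement were marked in 212 of 1231 cases (17.2%, 15.1 to 19.5%). Most of these 1231 genes belong to the 445 divergent pairs whose 5′ ends reach past each other. Counting those pairs as well raises the number of paired genes from 1450 to 2321. Other layouts were not counted apart. Those with a divergent non-coding start within 1 kb were marked in 173 of 655 cases (26.4%, 23.1 to 30%). Genes with neither kind of neighbour were marked in 4985 of 17471 cases (28.5%, 27.9 to 29.2%).

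Paired genes had CpG-rich starts and were marked less often than unpaired genes in the CpG-rich classes. The CpG ratio, which is the observed over the expected number of CpGs in the 500 bp on each side of a start, had a median of 0.777 for paired genes and 0.530 for unpaired genes. The median ratio was 0.698 for marked and 0.785 for unmarked paired genes, and 0.632 for marked and 0.407 for unmarked unpaired genes. When all coding genes were split into 10 equal classes of the ratio, the share marked was highest in the fifth class in both sets. In the top class the shares were 9.81% of paired genes and 28.3% of unpaired genes. In the fifth class they were 38.1% of paired and 48.7% of unpaired genes, with the unpaired share just above the paired interval (28.8 to 48.1%). In the 4 lowest classes, which held few paired genes (7, 17, 18 and 29 in order of class), the paired share was the higher. It was 28.6% of paired and 4.24% of unpaired genes in the first, 11.8% and 9.88% in the second, 27.8% and 15.8% in the third, and 37.9% and 28.2% in the fourth. The paired interval holds the unpaired share in each of these 4 classes. Given the CpG classes of the paired genes, unpaired genes would have been marked in 34.4%, or 499 of 1450, against the 209 observed.

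**Figure D1:**
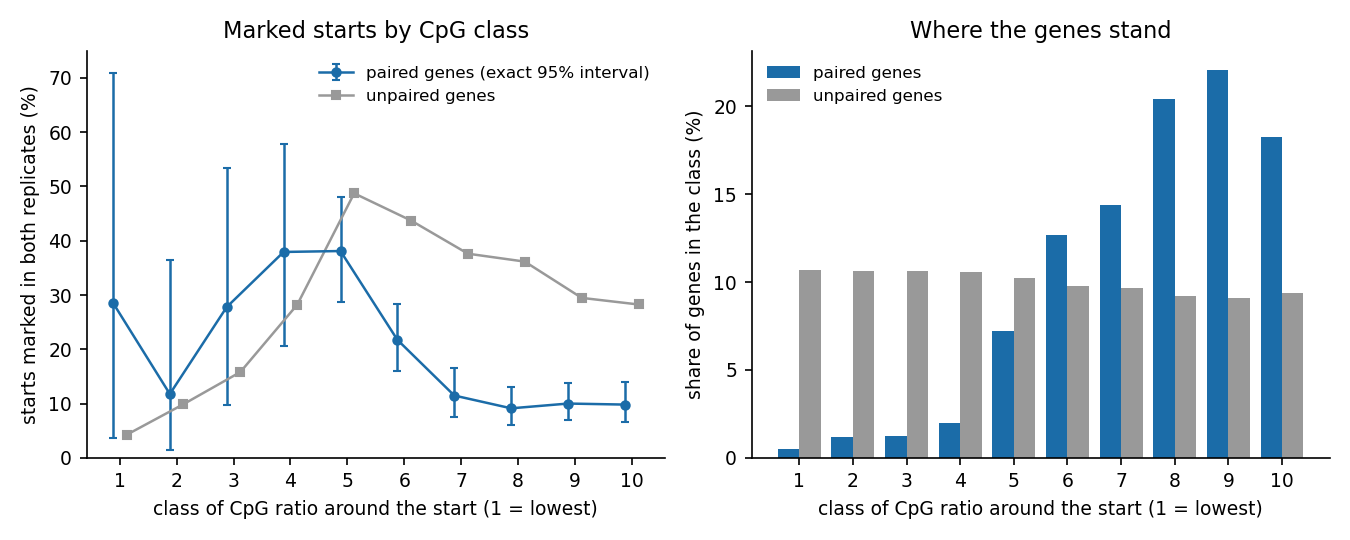
The left panel plots the percent of starts marked in both replicates by class of CpG ratio for paired genes (blue circles, exact 95% intervals) and unpaired genes (grey squares), and the right panel plots the share of each gene set in each class. From the sixth class upward the paired share lies below the unpaired share, at 21.7% against 43.7% in the sixth and 9.81% against 28.3% in the tenth.

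Where a paired start was marked, less of its surroundings was covered. At the 209 marked paired starts the covered part of the window had medians of 791 bp (replicate 1) and 765 bp (replicate 2), against 1282 and 1224 bp at the 5370 marked unpaired starts. Bases covered in both replicates had a median of 689 bp (quartiles 321 and 1208 bp) at marked paired starts and 1047 bp (502 and 1644 bp) at marked unpaired starts. The start base itself was covered in 45 of 209 marked paired genes (21.5%, 16.2 to 27.7%) and in 2021 of 5370 marked unpaired genes (37.6%, 36.3 to 38.9%). Over all genes 9.93% had a covered start base, with 3.10% of paired and 10.4% of unpaired genes. The authors' signal value of the strongest peak had medians of 6.74 and 6.65 in replicates 1 and 2 for marked paired genes, and of 7.79 and 7.81 for marked unpaired genes.

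Around the start, coverage dipped at the 5′ end in both sets. Each pair enters the paired curve from both of its genes in opposite directions, so a near mirror image is set by construction and its shape is given only as a description. Across all paired genes 3.10% were covered at the start base, 8.07% at 750 bp into the gene and 6.55% at 750 bp upstream, toward the partner. Unpaired genes had 10.4% at the start, 18.9% at 750 bp into the gene and 13.8% at 750 bp upstream. Marked paired genes had 56.0% at 750 bp into the gene and 45.5% at 750 bp upstream, and marked unpaired genes had 68.0% and 49.7% at the same distances.

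**Figure D2:**
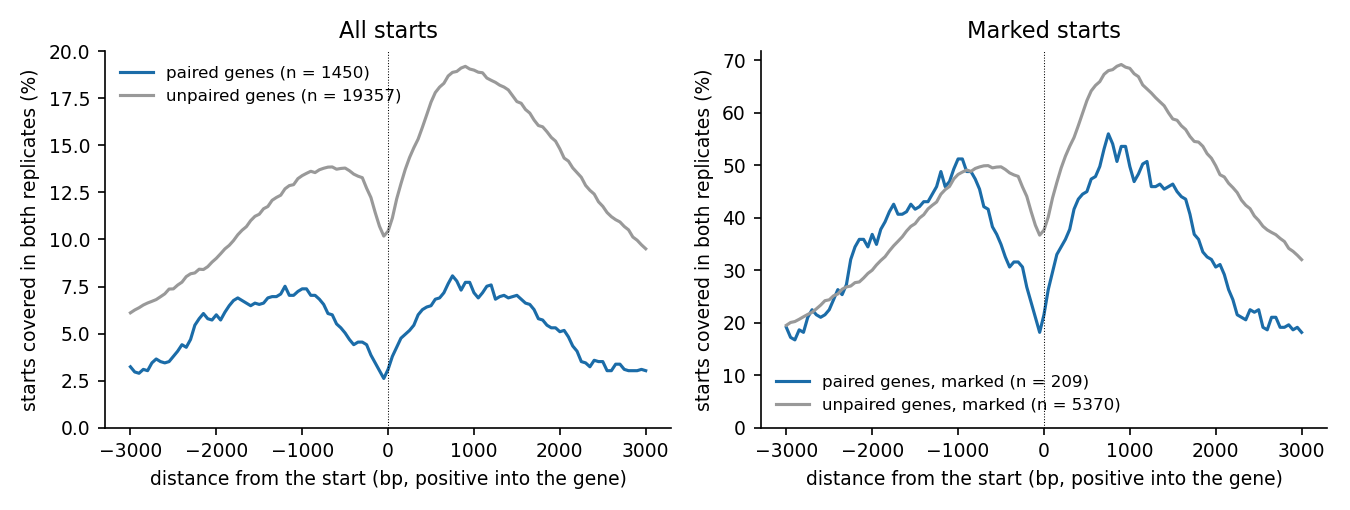
Percent of starts whose base at each distance (bp, in steps of 50 bp, positive into the gene) was covered by peaks of both replicates, for paired (blue) and unpaired (grey) genes, over all starts on the left and marked starts on the right. Among marked starts the paired curve lies at 21.5% at the start base, against 37.6% for unpaired genes.

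Windows of 1 kb on each side of starts at most 1 kb apart share bases, and in 100 of the pairs marked at both starts, all but 1, the shared bases themselves held peaks of both replicates. That so few pairs had a single marked start is thus largely set by the geometry. The 1 kb running from each start into its own gene is called its own side. It shares no base with that of the partner unless the starts coincide, where both hold the start base. By own sides 47 pairs were marked on both, 61 on 1 and 627 on neither. Of all coding genes 23.8% were marked on their own side, with 154 of 1450 paired genes (10.6%, 9.08 to 12.3%) and 4799 of 19357 unpaired genes (24.8%, 24.2 to 25.4%). Of the pairs with both starts marked, 47 carried the mark on both own sides, 52 on 1 and 2 on neither.

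Of the 108 pairs with a marked own side, the mark lay on a single gene's side in 61 (56.5%). For unpaired genes the own side was set against a 1 kb stretch beginning 128 bp upstream, the median distance of a pair. Of the 5381 with either side marked, 1949 were marked on 1 side (36.2%), and among CpG classes 6 to 10 the share was 34.6% of 3235. The 61 single-sided pairs were marked on the minus-strand gene in 30 cases and on the plus-strand gene in 31. In 55 of them the other own side had no peak in either replicate, and in 59 the stretch between the starts had no base covered in both. The CpG ratio was here taken over the 1 kb of each own side. Marked sides had a median of 0.624 and the partners' sides 0.555, and the marked side was the higher in 33 of 61 pairs. In pairs marked on both own sides the median was 0.518, and in pairs marked on neither 0.630.

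**Figure D3:**
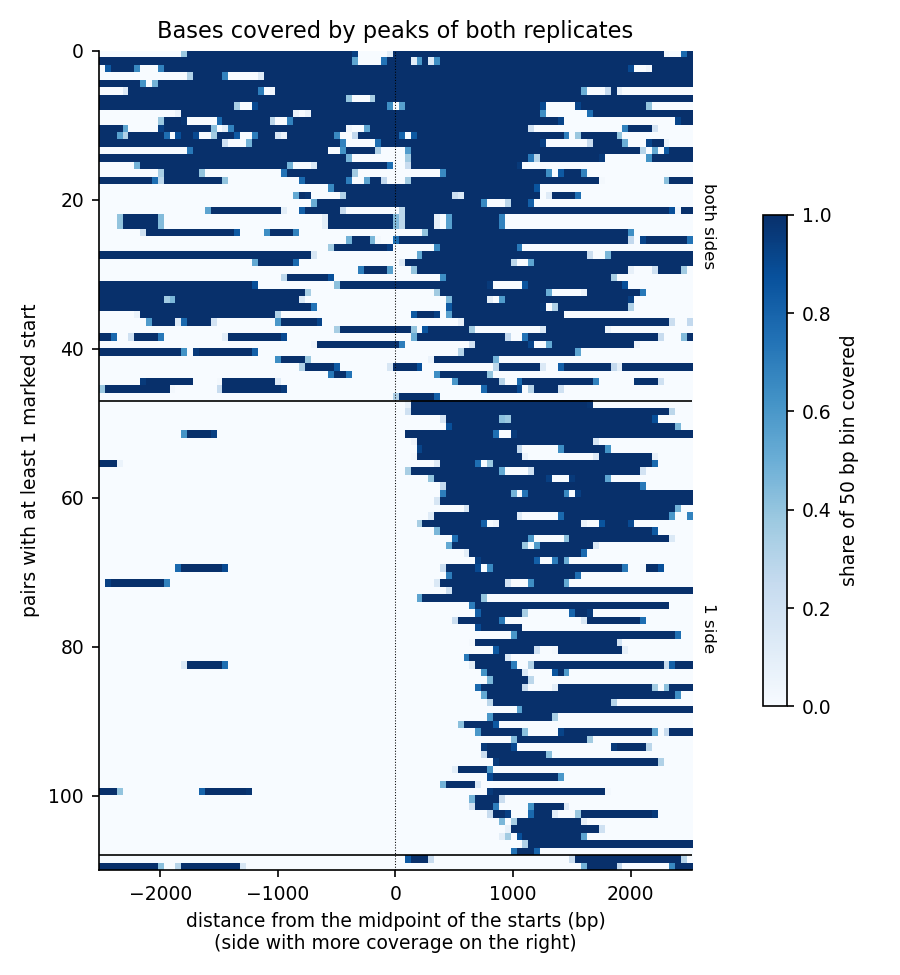
Each row is 1 of the 110 pairs with at least 1 marked start, and colour gives the share of each 50 bp bin covered by peaks of both replicates against distance from the midpoint of the starts in bp. Rows are turned so that the gene with more own-side coverage is on the right, which sets the right-hand weight by construction; the top block holds 47 pairs with both own sides marked, the middle block 61 with 1, and the last rows 2 with none.

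The stretch between the starts was seldom covered. Among the pairs with both starts marked it was covered wholly in 14, partly in 14 and not at all in 73. Both start bases were covered in both replicates in 20 pairs, 1 of the bases in 6 and neither in 75. A single peak spanned both start bases in each replicate in 14 pairs. The 20 pairs with both start bases covered had a median CpG ratio of 0.506, the 75 with neither covered 0.735, and the 625 unmarked pairs 0.782. Among marked unpaired genes the medians were 0.563 where the start base was covered and 0.684 where it was not.

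The pairs with the strongest and widest mark were named by their rank. Duox2 and Duoxa2, on chromosome 2 with starts 451 bp apart, encode a dual oxidase of the thyroid and gut and the factor that matures it. All 2452 bp of their joined windows were covered in both replicates, and the peak there had the authors' signal values of 14.8 in replicate 1 and 17.1 in replicate 2, the highest mean rank among pairs marked at both starts. The 2191 bp of Nr2e1-Ostm1 and the 2128 bp of Il17rb-Chdh were likewise covered throughout. Asphd1-Sez6l2, on chromosome 7 and 981 bp apart, had the most covered bases, 2684 of 2982 bp. Sox6, a transcription factor of cartilage and neural development, and 1110004F10Rik had 2400 of 2602 bp covered. Lyzl4, a lysozyme-like gene, and Vipr1, a receptor for vasoactive intestinal peptide, had 2408 of 2621 bp.

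Dok1, a docking protein of tyrosine kinase signalling, and Loxl3, a lysyl oxidase-like enzyme, had 2341 of 2703 bp covered. Odf3l1 and Cspg4, the NG2 proteoglycan, had 2203 of 2355 bp. Not every pair of high rank was marked on both sides. Eef1d, a translation elongation factor subunit, had 0 bp of its own side covered in either replicate, while its partner Tigd5 had 775 bp in replicate 1 and 722 bp in replicate 2. Sept10 had 0 bp in either replicate, while Sowahc had 936 and 700 bp. Deaf1, a transcription factor, had 584 and 604 bp on its own side, and Tmem80 had 0 bp in either replicate.

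**Figure D4:**
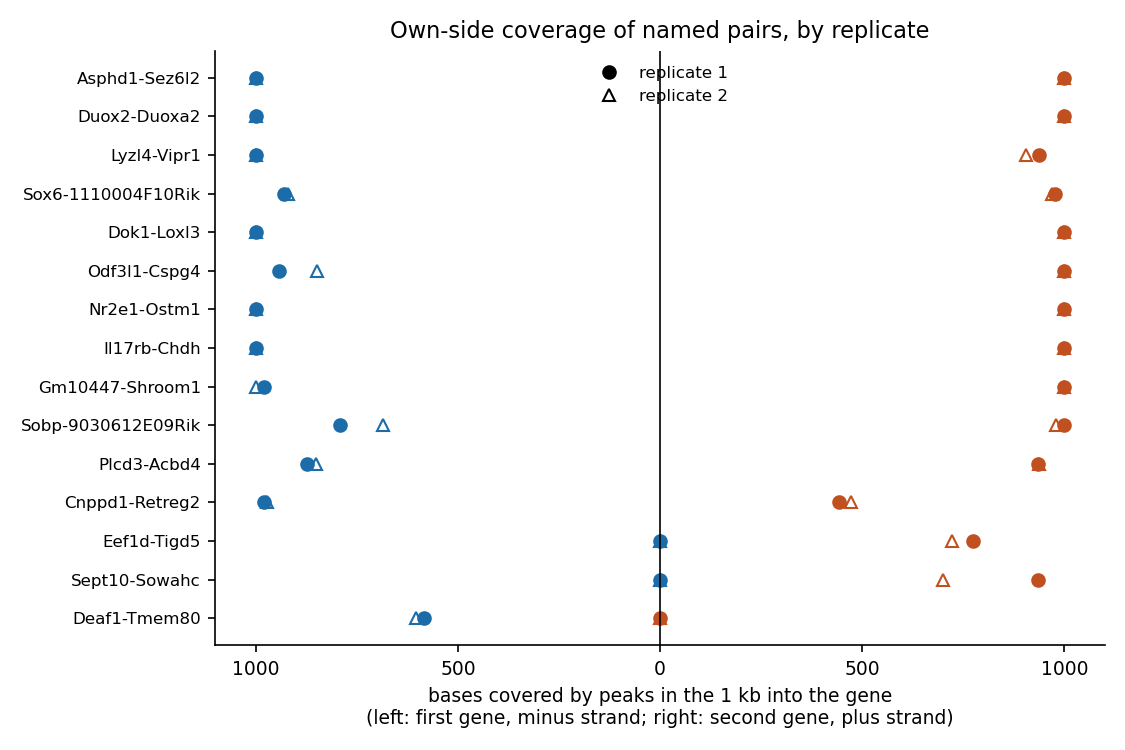
Bases covered by peaks in the 1 kb from each start into its gene, for the 15 pairs of highest signal rank or widest coverage, with the minus-strand gene to the left and the plus-strand gene to the right (filled circles, replicate 1; open triangles, replicate 2). In 12 pairs both sides are covered in both replicates, and Eef1d, Sept10 and Tmem80 stand at 0 bp.

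Joining covered bases within 3 kb of each other gives the length of the marked stretch at a pair. It had a median of 3254 bp over the 206 marked paired genes with a base common to both replicates (quartiles 1532 and 5795 bp) and of 4732 bp over the 5242 such unpaired genes (2200 and 9173 bp). Stretches of at least 10 kb were met at 35 paired genes (17.0%) and 1164 unpaired genes (22.2%). The longest at a pair were 34.4 kb at Gm10447-Shroom1, 33.5 kb at Nr2e1-Ostm1 and 31.2 kb at Tradd-Fbxl8, which were named after their lengths were seen, and the longest at an unpaired gene was 172 kb. Pairs marked on both own sides lay in stretches with a median of 4862 bp, and those marked on 1 in stretches with a median of 1685 bp.

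In single-sided pairs the own side of 1 gene was marked and that of its partner was not, and in 52 of the 61 the partner's start still counted as marked by its window on both sides. Over the 61 pairs the marked side had a median of 380 bp covered in both replicates, the lowest being 14 bp, and 27 pairs had at least 500 bp. The examples below are among those with the most covered bases, and their values are those of own sides. Grik5-Zfp574, Foxa3-Sympk, Fhod1-Slc9a5 and Sgsh-Slc26a11 belong to the gene lists described further on, and the others were chosen after their values were seen. Grik5 had 1000 bp of its own side covered in replicate 1 and 989 bp in replicate 2, and Zfp574, 221 bp away, had 0 bp in either. Foxa3, a forkhead factor of liver and gut endoderm, had 1000 and 940 bp, and Sympk, a scaffold of messenger RNA 3′ end processing, had 0 bp in either. Frs3, an adaptor of growth factor receptors, had 971 and 890 bp, and Tomm6, a subunit of the mitochondrial import channel, had 0 bp in either. Slc9a5, a sodium-proton exchanger, had 897 and 928 bp, and the formin gene Fhod1 had 0 bp in either. In each of these 4 pairs both starts counted as marked by the wider window, and the partner's own side was free of peaks in both replicates.

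Some of the other pairs had much closer starts and still differed. Rell2 had 857 bp of its own side covered in replicate 1 and 933 bp in replicate 2, and the histone deacetylase gene Hdac3, only 63 bp away, had 0 bp in either. Rgl1, a regulator of Ral signalling, had 790 and 900 bp, and Arpc5, a subunit of the Arp2/3 actin complex, had 0 bp in either with a start 191 bp away. Peg10 had 929 and 876 bp, while Sgce had 0 bp in replicate 1 and 280 bp in replicate 2. Hspa1l, a heat shock protein gene of the testis, had 1000 and 811 bp. Hspa1a, the stress-inducible member with a start 547 bp away, had 0 bp in either. That value is uncertain because Hspa1a has a near-identical copy in Hspa1b. Fbxo2, an F-box protein gene of the brain, had 1000 and 954 bp, and Fbxo44 had 0 bp in either. Sgsh, a lysosomal sulfatase-family enzyme, had 793 and 932 bp, and its partner Slc26a11, with a start 21 bp away, had 360 bp in replicate 1 and 0 bp in replicate 2.

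Of the 9 pairs with exactly 1 marked start, 5 had a peak of replicate 1 in the window of the other start and 4 had none there in either replicate. The values of these pairs are bases of the window of 1 kb on each side. Gamt, which makes creatine, had 755 bp covered in replicate 1 and 405 bp in replicate 2, and Dazap1, an RNA-binding protein gene, had 334 and 0 bp. Nlgn2, an adhesion protein of inhibitory synapses, had 682 and 319 bp, and Tmem256 had 0 bp in either. Cbln3, a cerebellin, had 561 and 338 bp, and Khnyn had 6 and 0 bp. Zfp319 had the shortest coverage, 84 and 59 bp, with authors' signal values of 10.96 and 8.43, and Usb1 had 0 bp in either. Gm43720-Stag3 and Gpc2-Stag3 share the unmarked gene Stag3, and the other 3 were Gm43951-Txndc17, Mms19-Ubtd1 and Cenpx-Lrrc45. Nisch-Sema3g was the only pair with the stretch between its starts covered and neither own side called, with 204 bp common to the replicates.

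The state of one gene went with that of its partner. Where 1 own side was marked the partner's was too in 94 of 155 cases (60.7%), against 61 of 1315 (4.64%) where it was not. This figure counts each pair from both genes. For comparison, divergent neighbours 1 to 2 kb apart had the partner's own side marked in 63.6% of such cases, against 10.8% where the first was not marked. Among neighbours farther apart the share was lower, at 34.0% for 2001 to 5000 bp and 35.7% for 5001 to 10000 bp. For 10001 to 50000 bp it was 32.1%. Where the first was not marked, the shares in these farther classes were 13.5%, 15.9% and 20.55%, in order of distance. For unpaired genes with a marked own side, the upstream stretch described above was marked in 71.5%. Among the 47 pairs marked on both, each side had a median of 719 bp covered in both replicates and the sides differed by a median of 250 bp. Their covered lengths had a Pearson r of 0.254 and a Spearman rho of 0.343 over 47 pairs, given as a description, since partners share their peaks and the library.

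Distance between the starts went with how many pairs were marked. On both own sides the mark was found in 17 of 307 pairs up to 100 bp apart (5.54%), 15 of 252 over 100 and up to 250 bp apart (5.95%), 5 of 108 over 250 and up to 500 bp apart (4.63%) and 10 of 68 over 500 bp apart (14.7%). Divergent coding neighbours outside the limit had both own sides marked in 14 of 96 at 1 to 2 kb (14.6%), 16 of 276 at 2 to 5 kb (5.80%), 35 of 494 at 5 to 10 kb (7.09%) and 135 of 1807 at 10 to 50 kb (7.47%). The share of genes marked on their own side was 8.63%, 9.92%, 9.72% and 22.8% in the 4 classes inside the limit, in order of distance, and 22.9%, 17.0%, 19.8% and 23.2% in the 4 outside it. The median CpG ratio over the same 8 classes was 0.783, 0.786, 0.793, 0.634, 0.475, 0.494, 0.509 and 0.577, so CpG content changed with distance as well, and its part in the shares was not tested.

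**Figure D5:**
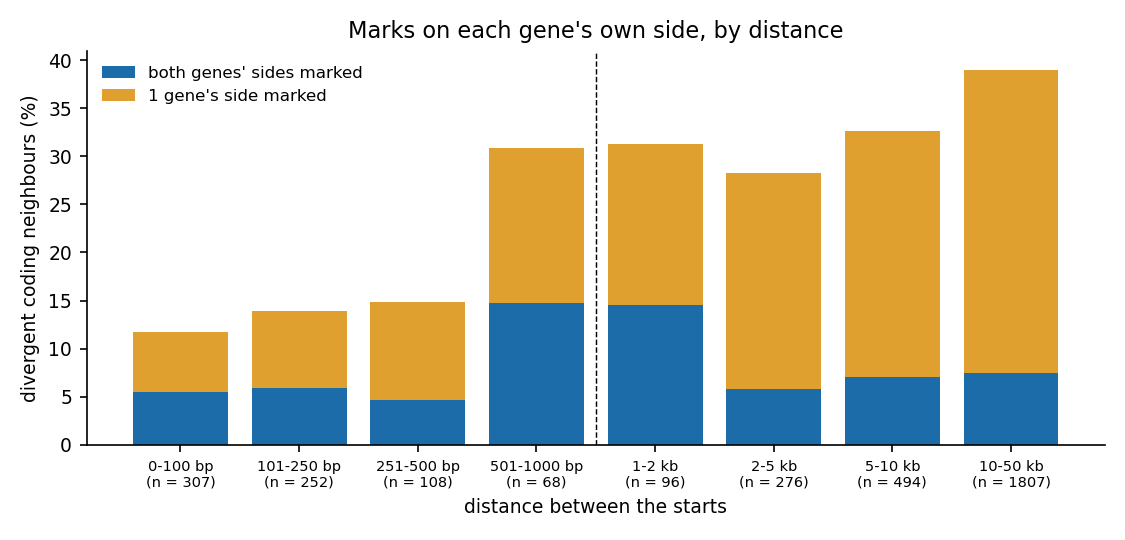
Percent of divergent coding neighbours with both genes' own sides (blue) or 1 gene's own side (orange) marked in both replicates, by distance between their starts, with the number of pairs under each bar. Left of the dashed line are the head-to-head pairs within 1000 bp; the blue share is 14.7% at over 500 bp and 14.6% at 1 to 2 kb, and between 4.63% and 7.47% in every other class.

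At the 1000 bp limit, Btf3l4-Txndc12 (987 bp apart) and Zfyve26-Rad51b (978 bp) were unmarked just inside it and Asphd1-Sez6l2 was marked at both starts. Just outside it Gpr108-Trip10 (1009 bp), Sgsm2-Tsr1 (1011 bp) and Dirc2-Hspbap1 (1019 bp) were unmarked, and Ppt2-Prrt1 (1023 bp) was marked at both.

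Pairs of growth and maintenance genes carried almost none of the mark, and few unpaired members of the same lists were marked. In each gene list the count is read against the 14.4% of all paired genes that were marked. None of 18 mitochondrial ribosomal protein genes, 23 genes of the respiratory chain and its assembly, 9 cytosolic ribosomal protein genes and 7 proteasome genes in pairs was marked. Among unpaired members of the same lists 2 of 60, 3 of 84, 2 of 75 and 4 of 42 were. Of 28 pairs with a DNA repair or replication gene, which include Brca1-Nbr1, Atm-Npat and Mcm4-Prkdc, only Pxmp2-Pole was marked, and Pole, a DNA polymerase gene, carried no mark on its own side. Of 5 pairs with an aminoacyl-tRNA synthetase, Kars-Terf2ip was marked, with 526 and 397 bp on the side of the telomere protein gene Terf2ip and 0 bp on that of Kars. For DNA repair and replication, 1 of 28 paired genes (3.57%) and 4 of 72 unpaired ones (5.56%) were marked. For the synthetases it was 1 of 5 paired genes (20.0%) and 0 of 29 unpaired ones.

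Histone genes were the list with the largest share of its members in pairs, 27 of 80 (33.8%), beside 1450 of all 20807 coding genes. They stood in 14 pairs. The marked pair among them was Hist1h2ba-Hist1h2aa, which encodes the testis-specific variants of H2B and H2A and had 1996 of 2307 bp covered in both replicates. In the other 13 pairs no start was marked, although Hist2h2ac-Hist2h2be had a peak at both starts in replicate 2 alone. Somatic histone genes are near-identical copies, and reads that fit several copies can be lost before peaks are called, so the absence of peaks is uncertain there. Whether this played a part was not tested.

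Developmental genes were rarely in pairs. Of 252 developmental transcription factor genes 3 were paired (1.19%), beside 1450 of all 20807 coding genes. Sox6 and Foxa3 were marked while Foxm1, a cell cycle factor paired with Rhno1, was not. Among the 249 unpaired ones 218 were marked (87.6%). A single gene of 69 for Wnt, Fgf and Bmp ligands and receptors was paired, Fzd4, and it was marked, as were 52 of 68 unpaired ones. Its side had 896 bp covered in replicate 1 and 709 bp in replicate 2, against 311 and 308 bp on the Tmem135 side. A single protocadherin gene of 67, Pcdh12, was paired, and both it and its partner Rnf14 were marked. Of the 2 pairs in the collagen list Col4a4-Col4a3 was marked and Polk-Col4a3bp was not, and Col4a3bp, taken in by its symbol, encodes a ceramide transfer protein. Lists were made by symbol, and others may hold such genes too.

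Genes with Tmem, Slc and zinc finger symbols, which differ in function within each list, were also counted. Of 23 pairs with a Tmem gene 8 had both starts marked, 1 had 1 and 14 had none. By gene, 8 of 23 paired Tmem genes (34.8%) and 71 of 212 unpaired ones (33.5%) were marked. Only 5 of the paired Tmem genes were marked on their own side. For Tmem80, Tmem143 and Tmem126b the marked own side was that of the partner. Pairs with a solute carrier gene had both starts marked in 3 of 16 cases, each on a single own side, and 4 of 17 paired solute carrier genes (23.5%) and 141 of 355 unpaired ones (39.7%) were marked. Among 19 pairs with a zinc finger gene, Grik5-Zfp574 had both starts marked and Zfp319-Usb1 had 1. Of the zinc finger genes themselves, 2 of 21 paired (9.52%) and 61 of 397 unpaired ones (15.4%) were marked. Zfp574 had no peak on its own side in either replicate.

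Pairs that are well known from other work differed. Col4a4 and Col4a3, 72 bp apart, had 1704 and 1632 bp of their windows covered in replicate 1 and 1737 and 1665 bp in replicate 2. Wrap53-Trp53, Brca1-Nbr1, Atm-Npat, Mcm4-Prkdc, Gart-Son and Mrps12-Sars2 had 0 bp in both replicates. Col4a1 and Col4a2, the other collagen IV pair, fall outside the 735 because their annotated 5′ ends pass each other by 21 bp, and were marked at both starts. Hspd1-Hspe1, Paics-Ppat, Surf1-Surf2, Sirt3-Psmd13 and Tk1-Afmid also overlap at the head and had no peak. Of the neural Zic genes, whose starts lie too far apart or overlap by too much for the rule, Zic1 and Zic4 were marked at both starts. Zic2 was marked over 49 bp in replicate 1 and 282 bp in replicate 2, and Zic5 had 0 bp in either.

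Partners with like names were counted apart. Of 27 pairs whose symbols share a stem, 7 had both starts marked (25.9%), beside 13.7% of all pairs. They were Col4a4-Col4a3, Slc25a29-Slc25a47, Hist1h2ba-Hist1h2aa, Abca17-Abca3, Hspa1a-Hspa1l, S100a1-S100a13 and Fbxo44-Fbxo2. In Slc25a29-Slc25a47, Hspa1a-Hspa1l and Fbxo44-Fbxo2 a single own side was marked, so the partner's start counted only through its wider window. The small number of such pairs and the way they were found after the lists were known make this a description only.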

How the data were processed

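Histone ChIP-seq peak lists of 2 biological replicates were analysed. Per the file headers, each deposited list gives every peak a signal value computed by the authors, of unstated scale, and −log10 p and −log10 q values. What aligner, peak caller, thresholds and control were used is not stated in the labels or headers, and depth per library is unknown. The pseudoreplicated list of each replicate, called on that replicate alone, was used throughout. Relaxed lists, 2 replicated lists of both libraries and the pseudoreplicated list of both libraries together served as alternatives. A list on build mm9 was not used.

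Genes and 5′ ends came from GENCODE release 21 on GRCm38, sequence from the RefSeq assembly of that build. A start was marked when a peak of each replicate overlapped its window of 1 kb on each side by at least 1 bp. The CpG ratio of a start used 500 bp on each side, and that of an own side its 1 kb. Shares have exact 95% intervals, and no test was run. The counting of own sides was tested on 1 simulated list with peaks planted at 591 pairs. The window of 1 kb on each side and the rule of both replicates were not tested in this way. Members, gene lists and alternatives were chosen with earlier results of these data known. Named pairs were the 12 of highest mean signal rank and 8 of widest coverage among pairs marked at both starts, those with 1 marked start, those at the distance limit, up to 3 per gene list and a set known from textbooks. A few pairs that this rule takes are not reported here. Figures were drawn with Matplotlib 3.10.9, and values computed with SciPy 1.17.1, pandas 2.3.3 and NumPy 2.4.6 under Python 3.11.15.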

Additional observations from a re-analysis of the deposited data

How the results depend on the processing

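Paired genes were marked less often than unpaired genes in all 16 other settings. With 500 bp on each side, 60 pairs had both starts and 21 had 1 start marked, with 9.66% of paired and 23.0% of unpaired genes marked. With 2.5 kb, 3 pairs had 1 start marked, and the shares were 18% and 32.6%. Own sides gave 47 and 61 pairs, and 10.6% and 24.8%. Requiring 50% of the window to be covered left 30 pairs with both starts marked, and 4.48% and 15.2%, whereas a base covered in both replicates gave 27.1% of unpaired genes. Relaxed lists gave 17 pairs with 1 start, and 18.3% and 35.3%. The list of both libraries gave 18.9% and 35.2%. Of the replicated lists, the first gave 14 pairs with 1 start, and 19.5% and 36.3%, and the second 18.5% and 35.2%. Single replicates gave 110 to 114 pairs with both starts, 8 to 15 with 1 and 606 to 617 with none, with 15.5% to 16.6% of paired and 29.6% to 32.1% of unpaired genes. Limits of 500 and 250 bp left 5 and 2 pairs with 1 start. Counting overlapping heads gave 167 pairs with both starts, 19 with 1 and 994 with none. Any coding transcript start gave 58 pairs with 1 start and 30.6% of unpaired genes. Unpaired genes with no other coding start within 1000 bp were marked in 28.5%, and those weighted to the CpG classes of paired genes in 34.4%. The causes were not tested. The number of pairs with a single marked start therefore depends on the window and the annotation, and read depth, which is unknown, limits every absence of a peak.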
